A study of Schmidtea polychroa with 132 samples.

Results

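The 100 transcripts described here were those of Schmidtea polychroa, a freshwater planarian, whose levels differed most from embryo to embryo late in development. They were chosen from 15124 transcript models by their own values. For each transcript the coefficient of variation (CV, the SD divided by the mean) of its CPM (read counts scaled to a common total in every library) was taken over the 15 single embryos of stage 8 and over the 16 single embryos of stage 7. Transcripts with a mean of at least 50 CPM in both stages, 3306 in all, were ranked by the lower of the 2 CVs, and the first 100 were kept. Before ranking, 3 transcripts that followed the spike-in RNAs and 116 that were high in a library labelled protist had been set aside. The 132 libraries of the series were made by CEL-Seq, a sequencing method that reads the 3′ ends of transcripts, and covered 127 single embryos of stages 1 to 8, 4 yolk samples and the protist sample. All embryos came from 1 laboratory population kept at 20 °C, were removed from their egg capsules over a span of 15 days and were staged one by one. No treatment or genotype separated the embryos. The labels did not say which embryos shared a capsule, so every p-value below measures the spread between these samples. Each transcript carries only a number, and the files used here do not pair these numbers with gene names, so no function is given for any of them.

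Planarian embryos develop in a capsule that also holds many separate yolk cells, made by the parent. A young embryo swallows these cells through a temporary pharynx and lives on them while its own tissues form. In the late stages the definitive organs, such as the nervous system, the eyes and the final pharynx, take shape, and the yolk taken in earlier is used up. Each library came from a whole embryo, so fewer cells of a type and less RNA per cell cannot be told apart in any value below.

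Total transcript counts ranged from 131164 to 1093508 in stage 8 and from 239057 to 1623149 in stage 7, with medians of 682548 and 775004. Only 3 libraries held fewer than 300000 counts, stage 8 replicate 10 and stage 7 replicates 3 and 13. Of the 100 members, 64 were still among the first 100 when these libraries were left out, 64 with TMM-scaled CPM and 60 when counts were thinned to the lowest late total. With the median absolute deviation over the median in place of the CV 42 stayed, and with a level minimum of 100 or of 20 CPM 26 and 13 stayed. Spike-in proportions of stage 8 replicate 12 grouped with those of stages 4 to 6 and not with the other late embryos. Along a score that sets transcripts higher in stage 8 against those higher in stage 7 (no member was used), stage 8 replicate 5 scored -0.35 and stage 7 replicate 1 scored -0.31, and both lay between the other stage 8 embryos, at 0.34 or more, and the other stage 7 embryos, at -0.69 or less.

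The CVs of the members, which chose them, had medians of 0.687 in stage 8 and 0.664 in stage 7. Over all 3306 transcripts at the level minimum the medians were 0.402 and 0.342 for the same stages. The members were of modest level, with a median of their mean levels of 75.6 CPM in stage 8 and 77.5 CPM in stage 7, against 110 and 113 CPM for all 3306. Counting error alone, taken as Poisson, would give a median of 4.39% of a member's variance in stage 8 and 4.08% in stage 7, and at most 12.2% and 8.95%. All 3306 transcripts had medians of 10.1% in stage 8 and 10.3% in stage 7, and a lower share in the members follows from choosing high CVs. In stage 8 the library of highest CPM was replicate 10 for 28 members and replicate 8 for 16. Replicate 10, the shallowest late library, was also the lowest one for 20 members. In stage 7 the shallow replicates 3 and 13 were the highest for 16 and 14 members and the lowest for 12 and 18. At the edge of the list, FW_v1_tr_14528 at rank 99 had a lower CV of 0.560 and FW_v1_tr_00099 at rank 100 one of 0.557. FW_v1_tr_13664 at rank 101 and FW_v1_tr_03556 at rank 102 followed with 0.557 and 0.556, so the limit falls in a continuous series of values.

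**Figure D1:**
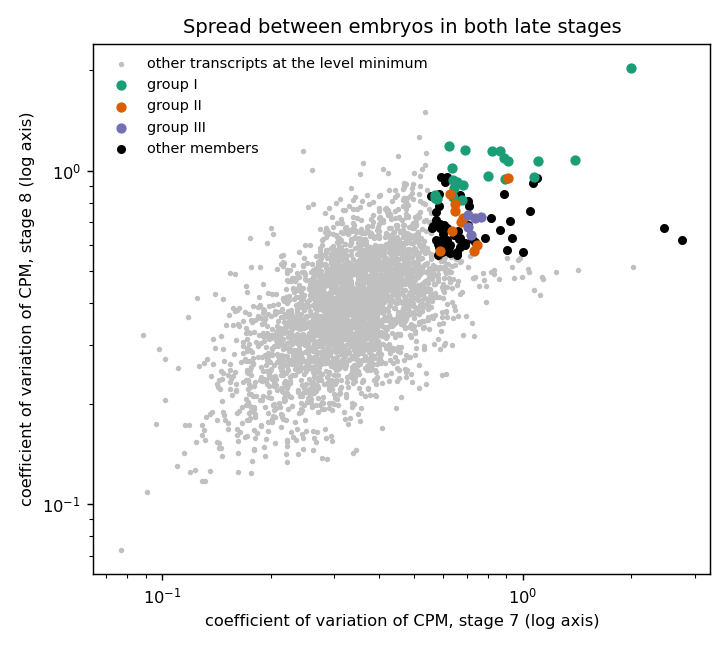
Each point is 1 of 3306 transcripts, with its CV of CPM over 16 stage 7 embryos on the x axis and over 15 stage 8 embryos on the y axis, both log axes; coloured and black points are the 100 members. The members fill the upper right corner by construction, and 1 transcript of group I, FW_v1_tr_13188, stands alone at a CV of about 2.0 in both stages.

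The first member by rank, FW_v1_tr_13188, lay between 0 and 1985 CPM in stage 8, with a median of 82.5 CPM. In stage 7 it lay between 4.18 and 1192 CPM, with a median of 55.9 CPM. A single embryo carried most of it in each stage, replicate 8 with 54.1% of the summed CPM of stage 8 and replicate 9 with 51.8% of that of stage 7. The next in each stage were far below, at 461 CPM in stage 8 replicate 1 and 222 CPM in stage 7 replicate 11. FW_v1_tr_00590, FW_v1_tr_10450 and FW_v1_tr_12015, at ranks 2 to 4, spread more evenly, with their highest embryo holding 22.3% to 28.0% of the sum in stage 8. FW_v1_tr_11029, at rank 5, reached 211 CPM in stage 8 replicate 5 against a stage median of 38.7 CPM, and 385 CPM in stage 7 replicate 3 against a stage median of 51.0 CPM. It joined no group. FW_v1_tr_12942, at rank 6, was highest in 2 of the shallow libraries, stage 8 replicate 10 with 290 CPM and stage 7 replicate 13 with 340 CPM. Ranks 7 to 10 were held by FW_v1_tr_03132, FW_v1_tr_05560, FW_v1_tr_05447 and FW_v1_tr_07607, with lower CVs of 0.911, 0.909, 0.893 and 0.886.

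Spread in one late stage carried over in part to the other. Across all 3306 transcripts Spearman's rho between the CV in stage 8 and that in stage 7 was 0.556, a description across transcripts that share the same libraries. When the 100 most variable transcripts were chosen in each stage alone, 22 were in both lists, which is 22.0% of each. Those chosen in stage 7 had a median CV of 0.593 in stage 8, where the median of all was 0.402. Those chosen in stage 8 had a median CV of 0.499 in stage 7, where the median of all was 0.342. Of the 100 chosen in stage 7, 44 were in the top 10% of stage 8, and of the 100 chosen in stage 8, 48 were in the top 10% of stage 7.

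The earlier stages 4, 5 and 6 had no part in the choice, and only 35, 40 and 38 members reached a mean of 50 CPM there. Over these 3 stages in order, their median CVs were 0.615, 0.726 and 0.671. All transcripts at that level had medians of 0.611, 0.487 and 0.622. The top 10% of each stage held 5.71%, 32.5% and 18.4% of these members. The order of the stages depended on the level minimum, with shares of 8.25%, 7.07% and 13.1% with no minimum and of 11.5%, 60.7% and 27.6% with a minimum of 100 CPM.

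Members that vary together were found by clustering the correlation of their log2(CPM + 5) values over the 31 late embryos, after the mean of each stage had been removed, so that a difference between the stages could not join them. Division at a distance of 0.5 gave 3 groups of at least 5 members, which are called I, II and III here and hold 22, 10 and 5. A further 7 groups of 3 or 4 members, IV to X, held 25, and they are described because they were seen in the result. Of the remaining 38 members, 18 formed 9 pairs and 20 stood alone. The mean correlation over all pairs of members was only 0.0914 in stage 8 and 0.0687 in stage 7. Among the 4950 pairs of members, 265 or 5.35% had r of at least 0.5 in both stages, where 0.667% of all pairs at the level minimum did. Opposed pairs, with r of -0.5 or less in both stages, made up 0.162% of the member pairs and 0.319% of all pairs.

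**Figure D2:**
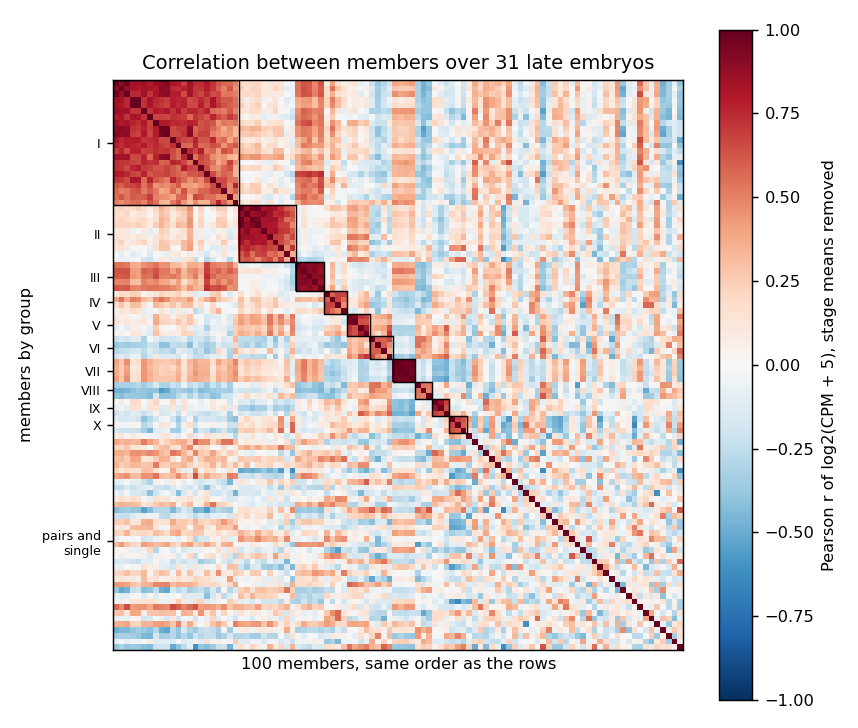
Rows and columns are the 100 members in the same order, groups I to X first and boxed, and colour gives Pearson's r of log2(CPM + 5) over 31 embryos with stage means removed. Groups I, II and III stand out as blocks, groups I and III are also red against each other, and the pairs and single members show no block.

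Group I, the largest, was a set of transcripts that were high together in a few embryos. Its mean pairwise r was 0.744 in stage 8 and 0.577 in stage 7. The summed level of its 22 members lay between 565 and 7299 CPM in stage 8, with a median of 1338 CPM. In stage 7 it lay between 715 and 5653 CPM, with a median of 2306 CPM. In stage 8, replicates 8, 1 and 10 held 7299, 5810 and 5741 CPM, and the next, replicate 9, held 2915 CPM. The high embryos of stage 7 were replicates 9, 3, 16 and 1, with 5653, 5262, 5217 and 4397 CPM, followed by replicate 11 with 3783 CPM. Stage 8 thus showed a gap between 3 embryos and the rest, while stage 7 was graded. Without the shallow libraries, 2 of which were among these high embryos, the mean r was 0.706 in stage 8 and 0.619 in stage 7. Without FW_v1_tr_13188, its most uneven member, the group still ran from 554 to 5505 CPM in stage 8 and from 700 to 5258 CPM in stage 7.

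The transcripts closest to the rest of group I were FW_v1_tr_07607, FW_v1_tr_13875 and FW_v1_tr_02968, with mean correlations to the others of 0.771, 0.753 and 0.741. FW_v1_tr_07607 had 14.8 CPM in its lowest stage 8 embryo, a median of 51.2 CPM and 365 CPM in its highest. In stage 7 the same values were 27.0, 189 and 740 CPM. Replicates 1, 8 and 10 of stage 8 held 365, 358 and 297 CPM of FW_v1_tr_07607, the same 3 embryos that were highest for the group. FW_v1_tr_13875 ranged from 33.7 to 473 CPM in stage 8 and from 27.1 to 510 CPM in stage 7. FW_v1_tr_02968 ranged from 21.2 to 374 CPM in stage 8 and from 20.5 to 756 CPM in stage 7. The ranges of the stages overlapped for these transcripts, but 3 stage 7 embryos for FW_v1_tr_07607 and 2 each for FW_v1_tr_13875 and FW_v1_tr_02968 lay above the highest stage 8 embryo. The log2 fold change in stage 8 against stage 7 was -1.05 with an SE of 0.49 for FW_v1_tr_07607 and -1.04 with an SE of 0.45 for FW_v1_tr_02968, and neither passed the edgeR test, with adjusted p of 0.242 and 0.196. Outside the members, 47 of 3206 transcripts at the level minimum, or 1.47%, followed the group with r of at least 0.6 in both stages. This was not particular to group I, since groups X, VI and VIII had 56, 49 and 38 such transcripts. The remaining groups had 0 to 11. The pair FW_v1_tr_07851 and FW_v1_tr_07852 had counts equal within counting noise in every library, so these models may share reads, and only 1 was kept when the grouping was repeated.

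Group II joined 10 transcripts that are far more abundant in yolk and young embryos than late on. Its mean r was 0.665 in stage 8 and 0.806 in stage 7. In stage 8 its sum lay between 257 and 2762 CPM, with a median of 1035 CPM, and in stage 7 between 401 and 3276 CPM, with a median of 1225 CPM. The highest embryos were replicates 3 and 8 of stage 8, with 2762 and 2453 CPM, and replicates 12, 15 and 11 of stage 7, with 3276, 2939 and 2593 CPM. Of these, only stage 8 replicate 8 was also among the highest of group I. FW_v1_tr_12644, FW_v1_tr_01997 and FW_v1_tr_12643 led the group. FW_v1_tr_01997 had a lowest, median and highest value of 27.5, 122 and 288 CPM in stage 8 and of 41.0, 145 and 530 CPM in stage 7. Counts of FW_v1_tr_12644, FW_v1_tr_12643 and FW_v1_tr_01057 were equal within counting noise in all libraries, and 8 members were left when 1 was kept of each such set. The score of group II was close to unrelated to that of group III, with r of -0.205 in stage 8 and 0.0499 in stage 7, and its r with group I was 0.374 and -0.144.

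Group III held 5 transcripts of nearly identical course, with a mean r of 0.880 in stage 8 and 0.921 in stage 7. Its sum lay between 98.2 and 1059 CPM in stage 8, with a median of 279 CPM, and between 177 and 1644 CPM in stage 7, with a median of 485 CPM. Stage 8 replicate 12, the library whose spike-ins grouped with stages 4 to 6, was the highest, and replicate 8 followed with 713 CPM. In stage 7 replicates 4 and 3 held 1644 and 1247 CPM and replicate 9 held 756 CPM. FW_v1_tr_06309 had a lowest, median and highest value of 17.6, 52.4 and 220 CPM in stage 8 and of 27.1, 95.1 and 283 CPM in stage 7. FW_v1_tr_09765, the other leading transcript, had 16.1, 54.3 and 185 CPM in stage 8 and 25.7, 94.0 and 314 CPM in stage 7. Each of the 5 had a partner within the group whose counts were equal or in a constant ratio within counting noise, and 3 were left when 1 was kept of each such pair, so these models too may share reads. Leaving out stage 8 replicate 12 gave a mean r of 0.833 in that stage. Group III moved with group I, with r between their scores of 0.638 in stage 8 and 0.613 in stage 7.

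**Figure D3:**
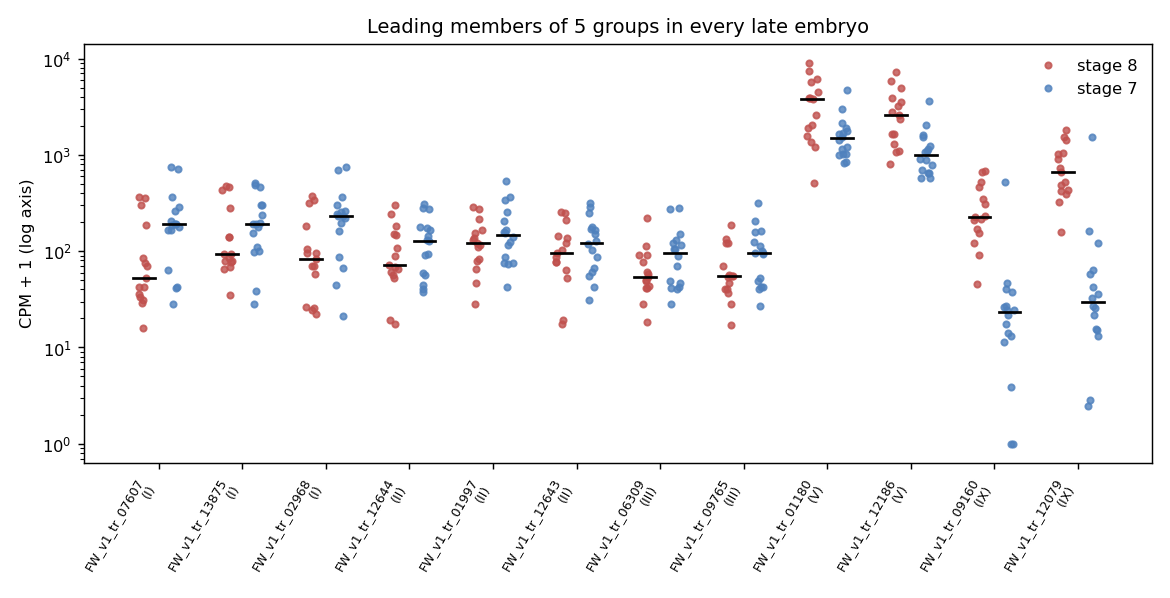
Points are single embryos, red for the 15 of stage 8 and blue for the 16 of stage 7, the y axis is CPM + 1 on a log axis, bars are medians, and the x axis lists 12 leading members with their groups. Members of groups I, II and III overlap between the stages, while those of groups V and IX are mostly higher in stage 8, with 1 stage 7 embryo, replicate 1, high for both transcripts of group IX.

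The smaller groups differed in how firmly they held. Group VII had the highest mean r of all, 0.955 in stage 8 and 0.985 in stage 7. Its 4 transcripts were 2 sets with equal counts, FW_v1_tr_12160 with FW_v1_tr_12633 and FW_v1_tr_15080 with FW_v1_tr_00170, so that 2 were left after keeping 1 of each. Its sum was highest in a shallow library of each stage, 1212 CPM in stage 8 replicate 10 and 1449 CPM in stage 7 replicate 13, where the medians were 338 and 662 CPM. The other shallow library, stage 7 replicate 3, held 464 CPM. Without the 3 shallow libraries the mean r was 0.928 in stage 8 and 0.988 in stage 7, and the highest sums were 631 and 1206 CPM. Group V, led by FW_v1_tr_01180 and FW_v1_tr_12186, was the most abundant, with sums of 1403 to 17610 CPM in stage 8 and 1584 to 8751 CPM in stage 7. The lowest stage 8 sum was that of replicate 10, and without the shallow libraries the lowest was 2751 CPM. The mean r of group V was 0.920 in stage 8 and 0.546 in stage 7. FW_v1_tr_01180 alone ranged from 511 to 8978 CPM in stage 8, with a median of 3777 CPM, and from 817 to 4747 CPM in stage 7, with a median of 1485 CPM.

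Group IX, with FW_v1_tr_09160, FW_v1_tr_12079 and FW_v1_tr_01969, was set apart by 1 stage 7 embryo. In stage 8 its sum lay between 264 and 3086 CPM with a median of 1202 CPM. Stage 7 replicate 1 held 2268 CPM, and the other 15 embryos of stage 7 held at most 279 CPM. This embryo carried 63.6% of the summed CPM of FW_v1_tr_09160 in stage 7 and 70.9% of that of FW_v1_tr_12079, and it was the stage 7 embryo nearest to stage 8 on the score of other transcripts. FW_v1_tr_12079 had 1518 CPM there and 162 CPM in the next embryo, replicate 9. Without stage 7 replicate 1 and stage 8 replicate 5 the mean r of the group was 0.746 in stage 8 and 0.630 in stage 7, where all embryos gave 0.752 and 0.831. Both transcripts had entered by their stage 8 CVs of 0.675 and 0.618, which were the lower ones.

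Groups IV, VI, VIII and X were looser, with mean r of 0.490, 0.673, 0.542 and 0.695 in stage 8 and of 0.696, 0.418, 0.504 and 0.533 in stage 7. FW_v1_tr_13867 and FW_v1_tr_01818 led group IV, FW_v1_tr_08959 and FW_v1_tr_13412 group VI, FW_v1_tr_10165 and FW_v1_tr_14722 group VIII, and FW_v1_tr_13072 and FW_v1_tr_08135 group X. Stage 8 replicate 10, the shallowest late library, was the lowest embryo for groups VI, VIII and X, with 15.2, 30.5 and 15.2 CPM where the stage medians were 772, 185 and 240 CPM. In stage 7 group IV was at 0 CPM in the shallow replicate 13, where the median was 226 CPM. Without the 3 shallow libraries the lowest stage 8 sums of groups VI, VIII and X were 292, 69.9 and 129 CPM, and the lowest stage 7 sum of group IV was 97.1 CPM. The mean r of groups IV, VI, VIII and X was then 0.481, 0.253, 0.391 and 0.377 in stage 8 and 0.343, 0.364, 0.226 and 0.310 in stage 7. For all 4 groups the value was lower without these libraries in both stages.

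Opposed members were rare. FW_v1_tr_08862 and FW_v1_tr_08135 had r of -0.621 in stage 8 and -0.680 in stage 7. Their sum had a CV of 0.331 in stage 8 and 0.266 in stage 7, under the CVs of 0.586 and 0.577 that they had one by one in stage 7. FW_v1_tr_02284 was opposed both to FW_v1_tr_03132, with r of -0.601 in stage 8 and -0.678 in stage 7, and to FW_v1_tr_02682, with r of -0.563 and -0.712 in the same stages. The sum of FW_v1_tr_02284 and FW_v1_tr_02682 had a CV of 0.347 in stage 8 and 0.344 in stage 7. A lower CV of the sum follows from having chosen opposed pairs.

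Since clustering members by their correlation and then reading that correlation in the same embryos repeats one measurement, groups were also formed in one stage and measured in the other. Of the 6 groups of at least 5 formed in stage 7, one of 20 transcripts, 19 of them from group I, had a mean r of 0.697 in stage 8. Another, made of exactly the 10 of group II, had 0.665 there, and one of 8 that held all of group III had 0.406. The other 3 had mean r of 0.0459, 0.261 and -0.0626 in stage 8, where all members averaged 0.0914. Of the 5 groups formed in stage 8, one of 29 that held all of groups I and III had a mean r of 0.501 in stage 7, and one of 8 with 7 from group II had 0.680. The other 3 had 0.109, 0.194 and 0.106, where all members averaged 0.0687. Groups I, II and III had been formed over both stages, so the overlap of these sets with them is a description. The sets that held group III include its models of equal or constant-ratio counts. Models of equal counts are also part of the set made of the 10 of group II and of the set of 29.

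In stages 4, 5 and 6, which the clustering did not use, groups II and III kept mean r of 0.731, 0.899 and 0.821 and of 0.822, 0.852 and 0.912. Group VII had 0.984, 0.992 and 0.988. These 3 groups hold models of equal or constant-ratio counts, and 8, 3 and 2 members of groups II, III and VII were left after keeping 1 of each pair. Such models were alike over all libraries and may share reads, so r between them in stages 4 to 6 is no separate result. Group I was looser before stage 7, with 0.310, 0.267 and 0.273, and group V showed 0.0465, -0.0870 and 0.411. Most members of group I had means there under the level minimum used for the late stages. Group V had mean sums of only 15.6 and 14.3 CPM in stages 4 and 5. In stage 6, replicate 6 held 3438 CPM of group V, and the other embryos held at most 42.1 CPM. Group III was also low, with mean sums of 32.1, 111 and 109 CPM over stages 4 to 6. The part of low counts and of stage 6 replicate 6 in these values of r was not tested. All members together averaged 0.126, 0.0479 and 0.0441 in these stages.

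Several measures of the embryo moved with the groups, and their part in the correlation was not tested. The share of reads that did not align ran from 31.6% to 48.3% in stage 8 and from 32.4% to 45.6% in stage 7. The score of group I, the mean log2 deviation of its members from the stage mean, had r of 0.812 with this share in stage 8 and 0.612 in stage 7 (Spearman's rho 0.643 and 0.491). Without the 2 embryos farthest from the median share the values of r were 0.689 and 0.517, and without the shallow libraries 0.796 and 0.567. Replicates 10, 8 and 1 of stage 8, the highest for group I, had the 3 highest shares of that stage, 48.3%, 41.2% and 40.7%. For group III r was 0.650 in stage 8 and 0.571 in stage 7. By single transcripts, 15 of the 100 members had r of at least 0.5 with this share in both stages, against 1.48% of all transcripts at the level minimum, and 11 of these belonged to group I and 4 to group III. Members of a group vary together, and some may share reads, so the 15 are not separate results. This share was added as a measure after the data had been seen.

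**Figure D4:**
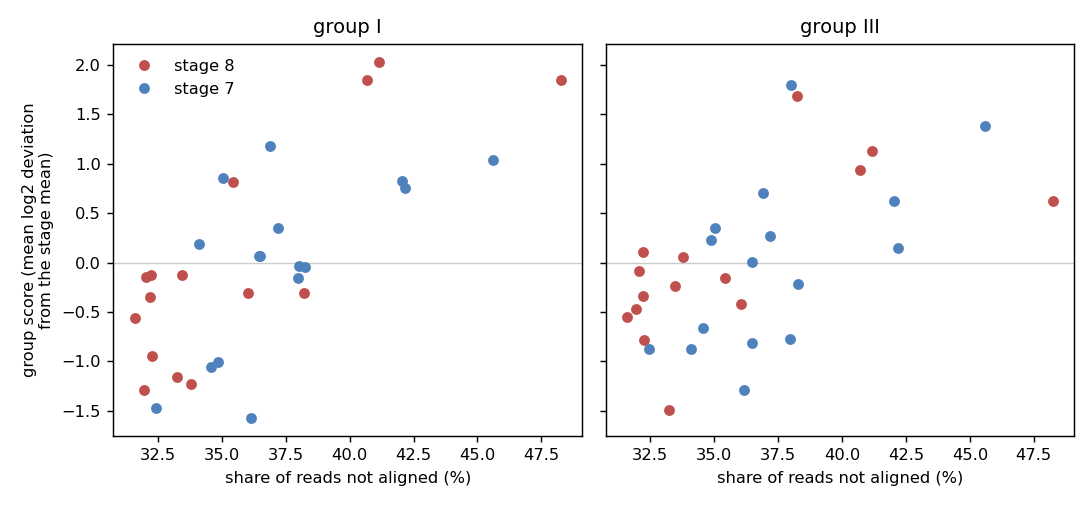
Points are single embryos, red for stage 8 and blue for stage 7; the x axis is the share of reads not aligned in percent and the y axis the score of group I (left) or group III (right), in log2 units from the stage mean. Embryos over 40% lie above 0 in both panels, and embryos under 35% lie mostly below 0.

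The share of counts held by transcripts higher in yolk than in stage 8, members left out, was 10.5% to 14.6% in stage 8 and 10.5% to 14.0% in stage 7. Its r with group I was 0.761 in stage 8 and 0.577 in stage 7, with rho of 0.482 and 0.624, and 0.691 and 0.568 without the 2 embryos farthest from the median. With group II, the group most abundant in yolk, r was 0.352 in stage 8 and 0.0489 in stage 7, with rho of 0.611 and -0.0676. Without the shallow libraries these values of r were 0.613 and 0.129, and without the 2 farthest embryos 0.492 and -0.289. The log2 total count of the library had an r with group V of 0.697 in stage 8 and 0.673 in stage 7, and without the 2 farthest embryos these were 0.296 and 0.503. For the log2 of transcript counts per spike-in count, r with group V was 0.781 in stage 8 and 0.639 in stage 7. Without the 2 embryos farthest on that measure it was 0.515 and 0.410. The r of group V with the stage 8 minus stage 7 score was -0.0166 in stage 8 and 0.743 in stage 7. For group IX that score gave r of 0.610 in stage 8 and 0.812 in stage 7, and 0.577 and 0.585 without the 2 farthest embryos.

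Comparing the stages asks whether transcripts that vary within a stage also differ between stages. In stage 8 against stage 7, edgeR's quasi-likelihood test called 9 of the 100 members higher at an adjusted p under 0.05, where 4.66% of all 8911 transcripts tested and 6.72% of those at the level minimum were called higher. All 4 of group V, all 3 of group IX and 2 of group VI made up these 9. None was called lower, where 1.55% of all transcripts and 2.39% of those at the level minimum were, though 7 were lower at an unadjusted p under 0.05 and DESeq2 called 1 lower, FW_v1_tr_05480, named here after its value was seen. The median log2 fold change of the members was -0.07, and that of all transcripts tested was -0.01. FW_v1_tr_11353 of group VI averaged 469 ± 268 CPM in stage 8 and 75.7 ± 75.7 CPM in stage 7 (SD, n = 15 and 16). Its log2 fold change was 2.67 with an SE of 0.51 and an edgeR adjusted p of 0.00077, and 14 of 15 stage 8 embryos lay above the stage 7 median. FW_v1_tr_09160 of group IX averaged 296 ± 200 CPM in stage 8 and 50.7 ± 125 CPM in stage 7, with a log2 fold change of 2.62, an SE of 0.61 and an edgeR adjusted p of 0.00659. The ranges of both overlapped between the stages, and stage 7 replicate 1 held the highest stage 7 value of each. Without stage 7 replicate 1 and stage 8 replicate 5, the log2 fold changes were 2.99 and 3.93 and edgeR called 11 members higher and 1, FW_v1_tr_05480, lower. These 2 embryos were left out for lying between the stages. That choice favours larger differences, so the larger values are no separate result. Over the 6 alternatives run for this comparison, 344 to 662 of all transcripts were called higher and 146 to 345 lower.

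In stage 7 against stage 6, the members split by group. Of the 96 members tested, edgeR called 45 higher and 21 lower, where 25.5% and 25.6% of all 7703 transcripts were called in these directions and 38.4% and 22.3% of those at the level minimum. The level minimum in stage 7 favours rises, and spike-in proportions change between these stages, so a change of library batch and of stage cannot be told apart here. Group I rose with 16 of its 21 tested members and fell with 1. All 5 of group III and all 4 of group V rose, and all 10 of group II and all 4 of group VII fell. FW_v1_tr_14540 of group V averaged 123 ± 106 CPM in stage 7 and 0.379 ± 1.15 CPM in stage 6 (SD, n = 16 each), with 2 counts in all of stage 6. The ratio of its pooled counts was 548, with an exact 95% counting interval of 151 to 4526, and its edgeR adjusted p was 2.77e-13. FW_v1_tr_12320 joined no group of members. Its counts were equal within counting noise to those of FW_v1_tr_12319 outside the list, so these models may share reads. FW_v1_tr_12320 averaged 150 ± 139 CPM in stage 7 and 0.680 ± 1.27 CPM in stage 6, with a log2 fold change of 6.91, an SE of 0.60 and an edgeR adjusted p of 1.12e-12. FW_v1_tr_12643 fell to 137 ± 87.0 CPM in stage 7, against 2732 ± 2122 CPM in stage 6, and FW_v1_tr_12644, with equal counts, to 137 ± 88.8 CPM, against 2689 ± 2023 CPM. No embryo of the stages overlapped for these falls.

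Stage 6 replicate 6 held a sum of 3438 CPM of group V, as much as stage 7 embryos, while the other 15 embryos of stage 6 held at most 42.1 CPM. Most of this sum came from 1 transcript, FW_v1_tr_01180, which averaged 200 CPM over stage 6. FW_v1_tr_12186, FW_v1_tr_11144 and FW_v1_tr_14540 averaged 27.2, 2.01 and 0.379 CPM there, so the sum does not speak for the whole group. Replicate 6 was also the highest of stage 6 for group III, with 642 CPM against at most 216 CPM in the others. On the score of other transcripts it stood at -2.285, the highest of stage 6 by a small margin, since the next embryo stood at -2.287. The lowest of stage 6 was -2.65, and the lowest stage 7 embryo stood at -2.20. Without stage 6 replicate 6 edgeR called 49 members higher and 21 lower in stage 7, where all libraries gave 45 and 21. Of all transcripts it then called 2163 higher and 1917 lower, where all libraries gave 1968 and 1972.

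In yolk against stage 8, edgeR called 21 members higher and 55 lower, where 19.9% and 42.4% of all 11073 transcripts and 10.3% and 64.1% of those at the level minimum were called. Yolk and stage 8 libraries also differ in spike-in proportions, so batch and tissue cannot be told apart. All 10 of group II and all 4 of group VII were higher in yolk. All of groups III, V and IX were lower, and group I was mixed, with 3 higher and 12 lower of 22. FW_v1_tr_00070 averaged 32998 ± 22300 CPM in yolk and 78.7 ± 66.9 CPM in stage 8 (SD, n = 4 and 15), with a log2 fold change of 9.66, an SE of 0.66 and an edgeR adjusted p of 1.47e-10. FW_v1_tr_03132 averaged 30790 ± 18973 CPM in yolk and 76.8 ± 73.0 CPM in stage 8, with a log2 fold change of 9.46, an SE of 0.70 and an edgeR adjusted p of 6.00e-10. No yolk library overlapped the stage 8 embryos for either. FW_v1_tr_12186 and FW_v1_tr_11353 had 0 counts in yolk, and against a floor of 3 counts over the yolk group they were at least 1332-fold and 212-fold lower in yolk than in the pooled stage 8 counts.

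Through the whole course the groups followed different paths. Group II had mean sums of 200085, 112156, 116052, 22695, 21213 and 17984 CPM over stages 1 to 6, then 1400 CPM at stage 7 and 1158 CPM at stage 8. Yolk held 279324 ± 85907 CPM of it (SD, n = 4). Its late values were thus small beside those of yolk and young embryos. Whether this late RNA was left over from earlier or newly made was not tested. Group VII took a like path at a lower level, with 19631 CPM at stage 1, 5126 CPM at stage 6, 642 CPM at stage 7 and 412 CPM at stage 8. Groups V and IX appeared late. Group V averaged 15.6, 14.3, 229, 3067 and 7547 CPM over stages 4 to 8, and group IX at most 2.56 CPM before stage 7, then 251 and 1398 CPM. Without stage 6 replicate 6, group V averaged 15.3 CPM at stage 6, and without stage 7 replicate 1, group IX averaged 116 CPM at stage 7. Group III averaged 109, 555 and 374 CPM over stages 6 to 8. Group I had its highest mean at stage 2, 7970 CPM with an SD of 11853 CPM over 29 embryos, and averaged 1117, 2793 and 2256 CPM over stages 6 to 8. Most of the stage 2 mean came from 3 of its 22 members, FW_v1_tr_02968 with 3177 CPM, FW_v1_tr_07607 with 2982 CPM and FW_v1_tr_08852 with 1496 CPM, while the other 19 averaged at most 125 CPM each. By medians the sum of group I was higher at stage 3, with 4050 CPM, than at stage 2, with 3299 CPM.

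**Figure D5:**
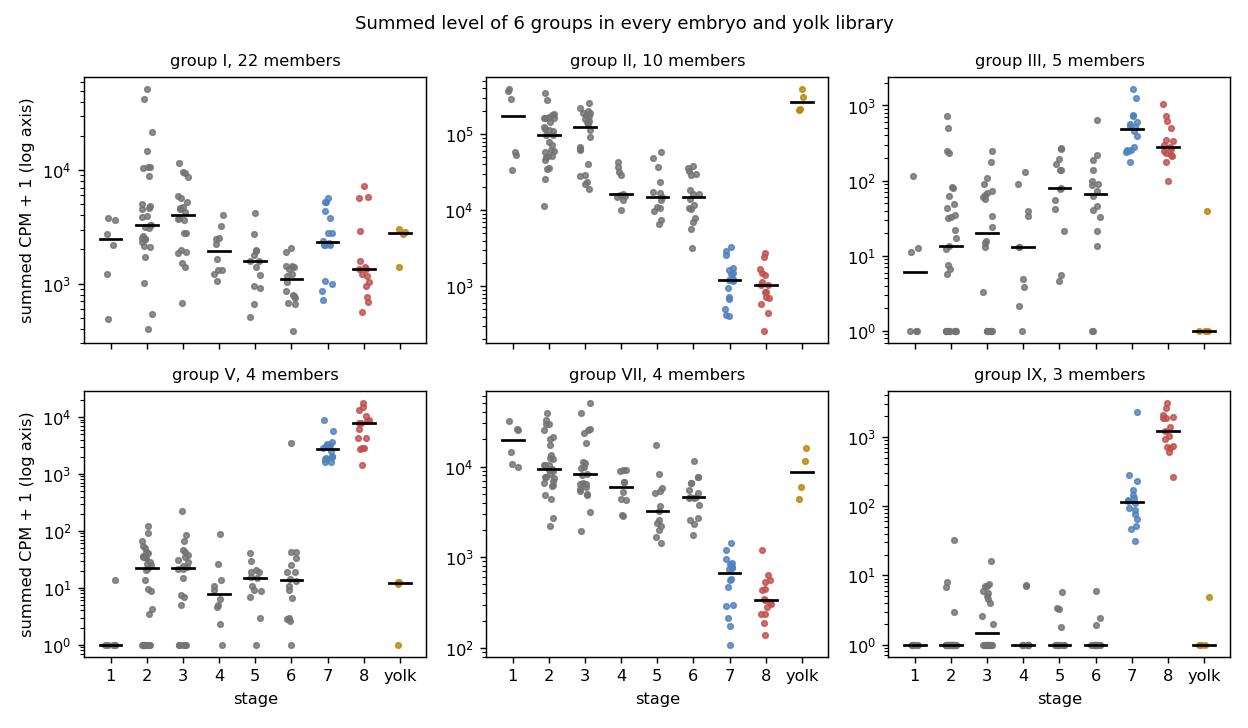
Each panel gives the summed CPM + 1 of 1 group on a log axis for every embryo of stages 1 to 8 and every yolk library on the x axis; points are libraries, bars are medians, blue is stage 7 and red is stage 8. Groups II and VII are high in yolk and young embryos and low late, groups V and IX appear in stages 7 and 8 apart from 1 stage 6 embryo at 3438 CPM in group V, and groups I and III keep a wide spread throughout.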

How the data were processed

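CEL-Seq libraries of 127 single embryos, 4 yolk samples and 1 protist sample were analysed. Raw read counts for every transcript model and spike-in, plus the HTSeq counters, were deposited by the authors as 1 table without normalization. The tools listed in the submitters' processing notes are HTSeq 0.5.4p3, Bowtie2 2.1.0 and CASAVA 1.8. A Drosophila genome build is also listed and was not used. The strand setting and any use of molecular identifiers are not given in the sources used here, so intervals cover counting error only. Over all libraries 63.6% of reads did not align and 2.56% fell in no feature, and both stayed out of library totals.

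From the counts, CPM over transcript rows, CVs and average-linkage clusters of 1 minus Pearson's r were computed in Python 3.11.15 (pandas 2.3.3, scipy 1.17.1). Counts were tested with edgeR 4.0.16 in R 4.3.3 (TMM, filterByExpr, robust quasi-likelihood F test, Benjamini-Hochberg adjustment over all transcripts tested), using only the libraries of the groups compared. Equal counts mean a chi-square p of at least 0.01 over libraries, for members of 20 or more counts on average. Scripts were tested on simulated data. Members, lists and tests were chosen with earlier results of these data known. Named transcripts were the first 10 by rank, those at the limit, the 2 or 3 closest to the rest of each group, at most 2 called in each direction, the 3 most opposed pairs and those with over 50% of a stage in 1 embryo. Alternatives were DESeq2 1.42.0, RLE factors, no filter, other level minimums, scalings, pseudocounts and heights, thinned counts, and libraries left out. Replicate numbers follow deposition order and pair nothing.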

Additional observations from a re-analysis of the deposited data

Results flagged for a closer look

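For some of the early stages and yolk, 28 groups of libraries were examined for 1 library far from the rest, and 6 had one. All 6 lay in stage 1, stage 4 or yolk. Not every early stage was covered, so the absence of a flag elsewhere, as for stage 6 replicate 6 in group V, is no result. For normally spread values chance gives about 1 in 20. Several of the flagged sets were otherwise at 0, so that rate does not apply to them and no excess is read from it. Group III summed to 116 CPM in stage 1 replicate 3, and the next stage 1 embryo had 11.6 CPM. Yolk replicate 1 had 38.8 CPM of group III, and the other yolk libraries had 0. Stage 1 replicate 6 had 12.7 CPM of group V, and the other stage 1 embryos had 0. Stage 4 replicate 5 had 86.0 CPM of group V, and the next stage 4 embryo had 25.2 CPM. For group V in yolk, replicate 1 had 0 CPM, and the other 3 had 10.4 to 11.6 CPM. Yolk replicate 4 had 3.81 CPM of group IX, and the others had 0. These sums rest on few counts.

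The library labelled protist, which entered no comparison, held 8357 CPM of group VII, where the 31 late embryos held 107 to 1449 CPM. Group VII averaged 19631, 13190 and 13275 CPM over stages 1 to 3 and 9424 CPM in yolk, above the protist library. Stages 4 to 6 averaged 6054, 4674 and 5126 CPM, below it. The stage 3 median, 8256 CPM, was also below it, and single yolk libraries held 4443 to 15928 CPM.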

How the results depend on the processing

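No log2 fold change of a named transcript changed sign under the alternatives run. The list itself depended most on the settings. Of the 100 members, 64 were kept with TMM-scaled CPM, 60 with thinned counts, 42 with the median absolute deviation over the median, 13 and 26 with a minimum of 20 and of 100 CPM, 64 without the shallow libraries (chosen after seeing the data) and 75 to 96 when 1 library was left out. The lists of both stages, which shared 22, shared 12 with the median absolute deviation and 10 and 37 with a minimum of 20 and of 100 CPM. The mean r of group III in stage 8 was 0.786 with Spearman's rho and 0.833 to 0.912 without 1 library, and 3 of its members stayed together with 1 of each equal pair. A height of 0.6 gave 6 groups of 5 or more with 62 members, and 2 to 5 groups were found without 1 library. The median CV of members in stage 4 was 1.05 with no minimum, and their share in the top 10% was 11.5% with a minimum of 100 CPM and 11.1% without the 2 stage 4 libraries richest in protist-high transcripts. In stage 5 that share was 7.07% with no minimum and 60.7% with 100 CPM.

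In stage 8 against stage 7, DESeq2 called 662 transcripts higher and 330 lower, and 345 were lower with no filter and 227 without the 2 embryos between the stages (chosen after seeing the data), where edgeR called 415 and 138. Each of these 3 alternatives called 1 member lower. In stage 7 against stage 6, 4836 were called higher by DESeq2 and 3749 with no filter, where edgeR called 1968. Causes were not tested. No paired analysis was possible because the replicate numbers follow deposition order and pair no embryos. In the shallowest late library 50 CPM is 6.56 reads, which limits single values there.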
